A study of Mus musculus with 41 samples.

Results

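The transcripts of 7 genes of TGF-beta and BMP signalling were followed over the day in mouse epidermal stem cells, on a high fat and on a control diet. The genes are the ligands Tgfb1 and Tgfb2, the inhibitory Smads Smad6 and Smad7, and the targets Id1, Id2 and Id3. They were picked by symbol, through the annotation of the array platform, out of 17097 genes with a probe set of their own. This choice was made with earlier results of these data known. Id2 has 3 probe sets and each other gene has 1, and for Id2 the probe set with the highest average level was used. The cells came from the epidermis of female, wild type C57B6/J animals that entered the experiment at the age of 8 weeks and were 15 weeks old after 7 weeks of feeding. The 41 arrays comprise 21 from the high fat diet, with 3, 4, 2, 4, 4 and 4 arrays at zeitgeber times (ZT) 0, 4, 8, 12, 16 and 20 h. The other 20 are from the control diet, with 4, 3, 2, 3, 4 and 4 arrays at these times. The way the stem cells were isolated is not given in the sources used here.

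TGF-beta ligands bind a pair of receptor kinases that activate Smad2 and Smad3, whereas BMP ligands act through Smad1, Smad5 and Smad9; both kinds enter the nucleus with Smad4. Smad6 and Smad7 are themselves transcribed in response to the pathway and dampen it, and the Id genes, which encode helix-loop-helix proteins that do not bind DNA, are direct targets of BMP signalling. In skin, TGF-beta restrains the division of keratinocytes, and BMP signals hold stem cells of the hair follicle at rest.

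All values are log2 expression from RMA, a method that corrects background, normalizes between arrays and sums up the probes of a probe set. A difference of 1 is a doubling on this scale, and values of different genes are not set against each other, except as a rough rank of mean level. Nothing in the labels ties each array to a separate mouse, and the p-values therefore reflect the scatter of arrays, part of which may be technical. Each collection day held 1 time point, so day and time of day cannot be told apart. Whether 1 day served both diets at a time point is unclear from the labels, and if it did not, diet and day cannot be told apart in any diet difference below. The number of arrays limits the precision, and how far each signal lay above background is unknown here. The mean levels of Tgfb2, Smad7 and Smad6 were low, above those of only 9.9%, 12.9% and 17.5% of all genes.

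Array medians lay between 6.41 and 6.44, and 11 of 11 clock genes followed a 24 h cosine in both diets. The control ZT8 and high fat ZT12 groups stood apart from the rest, as did high fat ZT8 replicate 2. On the second principal component, with 17.0% of the variance over all probe sets, the control ZT8 arrays scored 57.3 and 82.61 and the high fat ZT12 arrays from -44.67 to -17.91. The high fat ZT8 arrays were far from each other, at 8.88 and 38.91 on the first component (21.7% of the variance) and 11.58 and 28.48 on the second. Of the markers of the labelled cell type, the basal keratin genes Krt14 (11.84 to 12.8) and Krt5 (12.48 to 12.81) and the integrin gene Itga6 (9.72 to 11.36) were high on every array. Cd34, a marker of the hair follicle bulge, lay between 4.51 and 6.09. Markers of other cells ranged from 11.78 to 12.17 for Krt10 (suprabasal layers), 5.92 to 7.35 for Col1a1 (fibroblasts), 6.36 to 8.47 for Pmel (melanocytes), 5.94 to 6.46 for Pecam1 (endothelium) and 4.08 to 4.74 for Ptprc (leukocytes). In such bulk RNA, fewer cells of a type and less RNA per cell cannot be told apart.

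**Figure D1:**
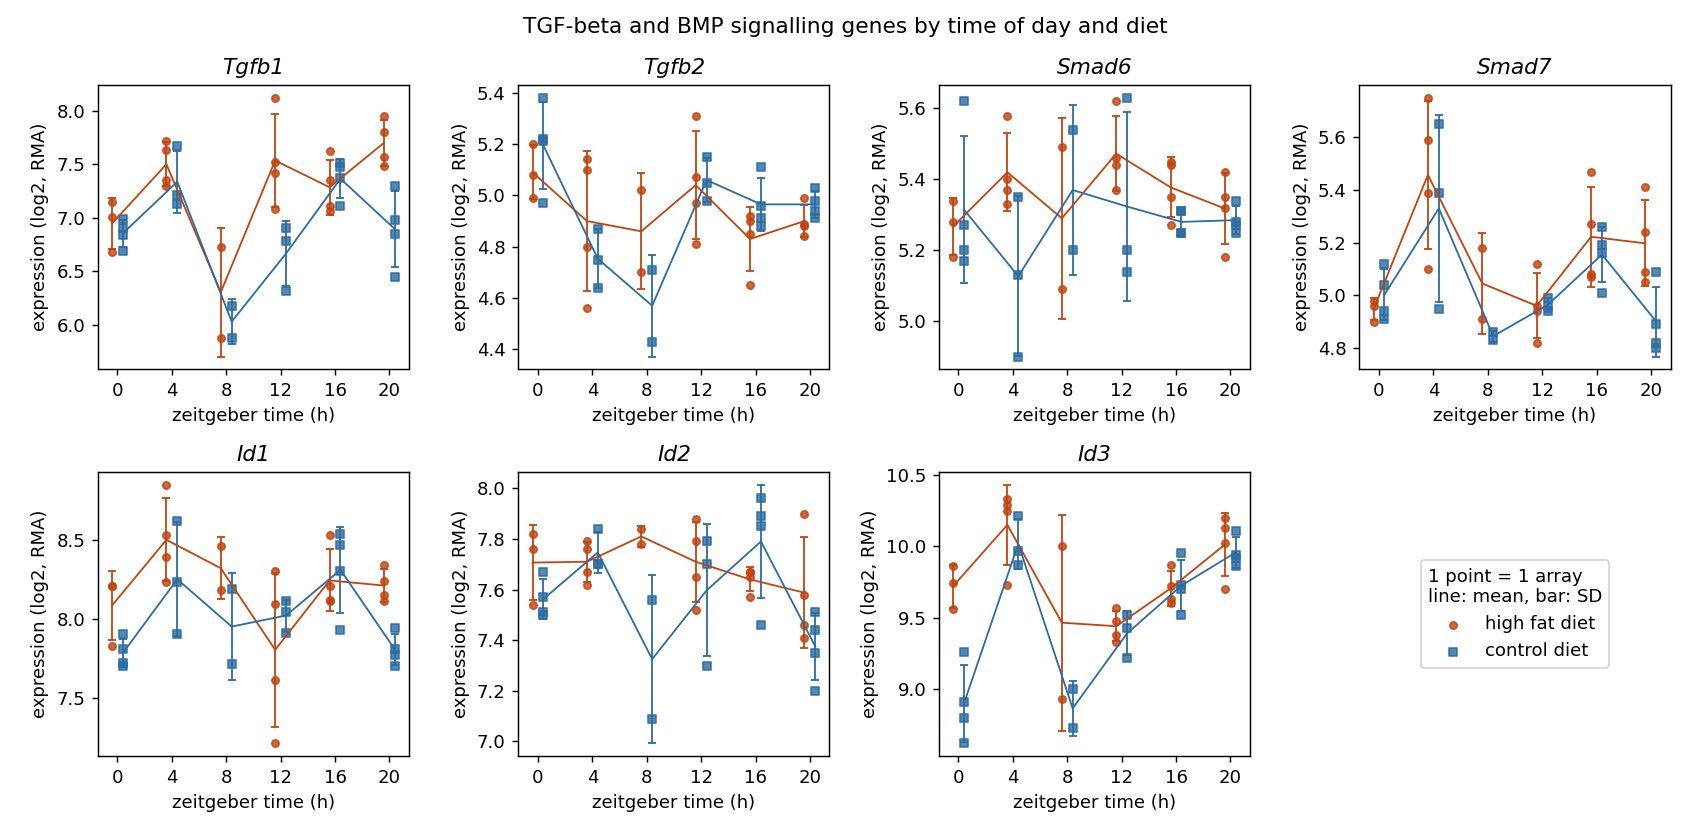
Expression (log2, RMA) of the 7 genes on each array against zeitgeber time in hours, with high fat arrays in orange and control arrays in blue; lines join group means and bars are SD over 2 to 4 arrays. Id3 separates the diets at ZT0, and Tgfb1 at ZT12 and ZT20, with no overlap between the arrays of the diets. High fat arrays lay all above for 7.76% of all genes at ZT0, 20.6% at ZT12 and 3.97% at ZT20.

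Of the 7 genes, the diets differed in Id3 at ZT0 and in Tgfb1 at ZT12 and ZT20, each time with the high fat arrays higher. The upstream stretches of both genes are shown because these 2 carry every diet difference that passed the test, and a shorter stretch of Tgfb2 because it holds the E-box that clock proteins can bind. They come from the RefSeq promoter table of build GRCm38.p6, which held 5 of the 7 genes. Capitals mark matches to any of 4 motifs on either strand, none of which contains another: the Smad binding elements GTCTAGAC and CAGAC, the BMP-type element GGCGCC and the E-box CACGTG. The Tgfb1 stretch is chr7:25686752-25687001 and that of Id3 chr4:136143572-136143821, both on the plus strand and ending 1 base before the annotated start. The Tgfb2 stretch is chr1:186706007-186706066 on the minus strand, from base -77 to base -18.
Tgfb1: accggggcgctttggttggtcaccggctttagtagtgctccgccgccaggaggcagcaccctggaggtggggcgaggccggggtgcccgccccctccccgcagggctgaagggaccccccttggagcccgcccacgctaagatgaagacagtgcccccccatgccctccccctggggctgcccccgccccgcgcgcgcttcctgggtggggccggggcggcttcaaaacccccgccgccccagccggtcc
Id3: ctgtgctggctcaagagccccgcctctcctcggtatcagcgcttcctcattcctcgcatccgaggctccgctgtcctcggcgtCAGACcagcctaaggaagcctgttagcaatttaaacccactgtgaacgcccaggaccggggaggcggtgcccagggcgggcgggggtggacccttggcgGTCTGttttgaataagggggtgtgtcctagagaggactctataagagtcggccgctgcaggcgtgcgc
Tgfb2: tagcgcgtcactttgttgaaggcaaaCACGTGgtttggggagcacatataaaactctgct

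In the 250 bases upstream of the start, Id3 held CAGAC in 2 places, its first bases at -167 and -68, the one at -68 written on the other strand as GTCTG. Tgfb2 held CAGAC in 2 places outside the stretch shown, and CACGTG once, at -51. Id2 held GGCGCC once, at -231, and neither Tgfb1 nor Smad6 held any of the 4. Among 32851 promoters of the same table, 42.2% held CAGAC, 9.59% GGCGCC, 6.02% CACGTG and 0.167% GTCTAGAC. A match describes the letters of the window and is no evidence of binding.

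Tgfb1, the ligand best known from wound repair and growth arrest of keratinocytes, had the largest single difference between the diets among the 7 genes, 0.87 at ZT12. At ZT12 its high fat arrays read 7.52, 7.08, 8.12 and 7.42, against 6.32, 6.78 and 6.90 on the control arrays. At ZT20 the high fat arrays read 7.95, 7.80, 7.57 and 7.48, against 6.45, 6.98, 7.30 and 6.85 on the control arrays. At both times every high fat array lay above every control array. Group means at ZT12 were 7.54 ± 0.43 in high fat (SD, n = 4) and 6.67 ± 0.31 in control (SD, n = 3). The difference was 0.87 ± 0.21 (SE; 95% confidence interval 0.44 to 1.3), or 1.82-fold, with an adjusted p of 0.00497 by limma over all genes. At ZT20 the means were 7.70 ± 0.22 in high fat and 6.90 ± 0.35 in control (SD, n = 4 each), and the difference was 0.80 ± 0.20 (interval 0.40 to 1.2), or 1.74-fold, adjusted p 0.0446.

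These calls read against different backgrounds. At ZT12, 18.0% of all genes were called and 13.6% were called higher in high fat, and 20.6% had all high fat arrays above all control arrays; Tgfb1 was the 1 member of 7 called. At ZT20, 0.702% of all genes were called, 0.310% higher in high fat, and 3.97% had high fat arrays all above; again Tgfb1 was the 1 called of 7. The ZT12 call of Tgfb1 was lost without control ZT12 replicate 1, with an adjusted p of 0.0522 and a difference of 0.69, and in a fit of the ZT12 arrays alone (0.0634). The ZT20 call of Tgfb1 was lost, with adjusted p between 0.0503 and 0.163, without any of 13 arrays. It was also lost in a fit of the ZT20 arrays alone (0.165) and with the replicate number as a block (0.0576). The 13 were all 4 high fat arrays of ZT20, control ZT20 replicates 1 and 4, control ZT12 replicates 2 and 3, replicate 3 of control ZT0, control ZT16, high fat ZT0 and high fat ZT16, and high fat ZT4 replicate 4. The difference stayed between 0.65 and 0.88 without any 1 of them.

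At the other 4 time points the Tgfb1 arrays of the diets overlapped. High fat arrays read 6.68, 7.15 and 7.01 at ZT0, against 6.69, 6.90, 6.99 and 6.84 on control arrays. At ZT8 they read 6.73 and 5.88 in high fat and 6.18 and 5.88 in control. The ZT8 group mean was the lowest of the day in both diets. On the same arrays the mean of 8 basal markers was 11.77 and 11.19 in high fat and 11.19 and 11.35 in control. Its group means at other times lay between 11.78 and 11.92. For 8 suprabasal markers the mean was 9.35 and 10.11 in high fat and 10 and 9.8 in control. Group means at other times lay between 9.22 and 9.48. The part of these markers in the low ZT8 level was not tested. The Tgfb1 differences at these 4 time points ran from -0.08 at ZT16 to 0.27 at ZT8, with adjusted p from 0.603 to 0.904. Averaged over the 6 time points, Tgfb1 was higher in high fat by 0.35 ± 0.09 (SE), or 1.28-fold, adjusted p 0.0151. The call held without ZT8. Without the ZT12 arrays the average was 0.25 with an adjusted p of 0.155, and it was also lost without control ZT8 replicate 2 (0.0503) or high fat ZT8 replicate 1 (0.0580). The test that the diet difference of Tgfb1 is the same at all 6 times gave an adjusted p of 0.0511, short of the threshold of 0.05. It passed without any of 10 arrays (0.0247 to 0.0493), and also without ZT8 as a whole (0.0288). The 10 were high fat ZT8 replicates 1 and 2, replicate 2 of high fat ZT0, ZT12 and ZT16, high fat ZT20 replicate 4, replicate 3 of control ZT4, ZT12 and ZT20, and control ZT16 replicate 4.

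Beside Tgfb1 at ZT12, 4 of 7 leukocyte and Langerhans cell markers were higher in high fat (H2-Ab1, H2-Aa, Cd74 and Cd207, by 0.45 to 0.94) and Cd52 was lower by a log2 difference of -0.71. The summed level of these 7 markers, as their mean per array, ran from 7.09 to 7.31 in high fat and from 6.93 to 7.03 in control. The pan-leukocyte gene Ptprc differed by 0.04 (adjusted p 0.834) there. Of all genes, 13.6% were called higher at ZT12 and 4.44% lower, and markers of other lists were among those called. The mean of 6 bulge markers ran from 7.49 to 7.77 in high fat and from 7.18 to 7.25 in control, with Lgr5 (1.32) and Cd34 (0.73) called higher and Nfatc1 (-0.46) lower. The mean of 6 melanocyte markers ran from 6.18 to 6.37 in high fat and from 6.51 to 6.54 in control, with 2 called, both lower, and that of 4 smooth muscle and pericyte markers from 6.61 to 6.70 in high fat and from 6.41 to 6.59 in control, with 1 called. None of these 3 means overlapped between the diets. Of single genes, 20.6% had the high fat arrays all above at ZT12. Of 8 suprabasal markers 2 were called higher, of 8 basal markers 1 was, and of 15 immediate early genes 9 were called lower. The part of all these markers in the Tgfb1 difference at ZT12 was not tested. At ZT20, 0 of the 7 leukocyte and Langerhans markers were called, with means of 7.15 to 7.39 in high fat and 7.38 to 7.45 in control. At ZT8, 2 of these 7 were called higher, where 5.42% of all genes were, with group means of 6.84 in high fat and 6.54 in control. Tgfb1 was not called at ZT8, where it differed by 0.27. The part of these markers in the Tgfb1 values at ZT8 and ZT20 was not tested either.

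**Figure D2:**
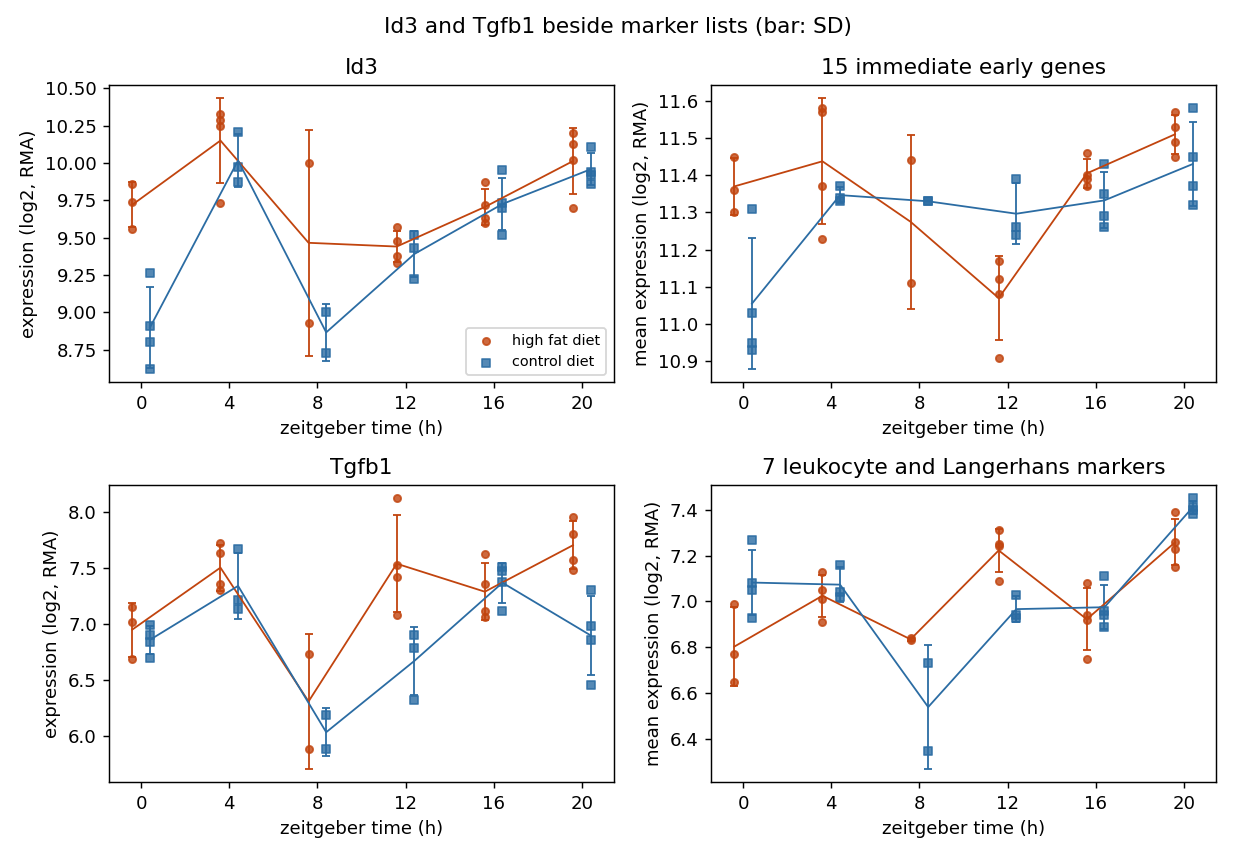
Left, expression (log2, RMA) of Id3 and Tgfb1 on each array against zeitgeber time in hours; right, the mean log2 level of 15 immediate early genes and of 7 leukocyte and Langerhans markers on the same arrays, with high fat in orange, control in blue, lines through group means and bars of 1 SD. The immediate early mean is higher in high fat at ZT0 (11.37, against 11.06 in control). The leukocyte mean is higher in high fat at ZT8 (6.84, against 6.54 in control) and ZT12 (7.22, against 6.97 in control), and lower at the other times.

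Tgfb2, the second ligand, did not pass the diet test at any time point, and its differences ran from -0.14 at ZT16 to 0.28 at ZT8 with adjusted p from 0.261 to 0.924. Its ZT8 arrays, where the difference was widest, read 5.02 and 4.70 in high fat, against 4.71 and 4.43 in control, and overlapped. The average over the day differed by 0.02 ± 0.05 (SE, 95% interval -0.08 to 0.12, adjusted p 0.864). Only 2 of the 6 time points had a higher Tgfb2 mean in high fat.

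Smad6, which blocks mainly the BMP branch, passed no diet test. Its widest difference was 0.30 ± 0.11 at ZT4 (adjusted p 0.280), where high fat arrays read 5.58, 5.40, 5.33 and 5.37, against 4.90, 5.35 and 5.13 in control. The lowest high fat array thus lay just below the highest control array. Smad7, which acts on both branches, was likewise not called, and its widest difference was 0.30 ± 0.12 at ZT20 (adjusted p 0.227). There the high fat arrays read 5.05, 5.41, 5.09 and 5.24, and the control arrays 4.89, 4.80, 4.82 and 5.09. The 2 groups overlapped through 1 control array. At ZT8 the high fat arrays of Smad7 (5.18 and 4.91) lay above those of control (4.86 and 4.83), as did those of 28.0% of all genes. The Smad7 difference there was 0.20 (adjusted p 0.507). Averages over the day differed by 0.07 for Smad6 (95% interval -0.02 to 0.17) and 0.11 for Smad7 (-0.01 to 0.22), with adjusted p of 0.352 and 0.229.

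Id3 was the target gene in which the diets differed. At ZT0 its high fat arrays read 9.56, 9.86 and 9.74, against 8.80, 9.26, 8.62 and 8.91 on the control arrays. All 3 high fat arrays lay above all 4 control arrays, as did 7.76% of genes at that time. The means were 9.72 ± 0.15 in high fat (SD, n = 3) and 8.90 ± 0.27 in control (SD, n = 4), a difference of 0.82 ± 0.17 (SE, 95% interval 0.47 to 1.17) or 1.77-fold, with an adjusted p of 0.0154 by limma. Id3 was the 1 member of 7 called at ZT0, where 0.854% of all genes were called and 0.450% called higher. The call was lost without control ZT0 replicate 3 (adjusted p 0.0725, difference 0.73), high fat ZT0 replicate 2 (0.0978, 0.75) or high fat ZT0 replicate 3 (0.0883, 0.81), and in a fit of the ZT0 arrays alone (0.0644).

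Beside Id3 at ZT0, 14 of 15 immediate early genes, which respond within minutes to stimuli and to tissue dissociation, had a positive difference, and 2 were called, Egr2 at 0.55 and Fosl1 at 1.19. Their mean per array ran from 11.30 to 11.45 in high fat and from 10.93 to 11.31 in control. Of the leukocyte markers 1 was called, H2-Aa, at -0.49. The part of these genes in the Id3 difference was not tested. At ZT12, 9 of the 15 immediate early genes were called, all 9 lower in high fat, where 4.44% of all genes were called lower. Id3 differed there by 0.05 (adjusted p 0.874). At ZT4 and ZT20, 15 and 14 of the 15 had a positive difference, with medians of 0.07 and 0.06, beside 0.29 at ZT0. None of the 15 was called at ZT4 or ZT20, and Id3 differed by 0.13 and 0.06. Any link of Id3 to these genes at ZT4, ZT12 and ZT20 was not tested either.

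At ZT8 the 2 high fat arrays of Id3 were far apart, at 10.00 and 8.93, and the control arrays read 8.73 and 9.0. The same 2 high fat arrays had basal marker means of 11.77 and 11.19 and suprabasal marker means of 9.35 and 10.11. Their part in the Id3 values was not tested. The Id3 groups overlapped, and the difference of 0.60 ± 0.22 had an adjusted p of 0.0923. Without high fat ZT8 replicate 2 the difference was 1.14 with an adjusted p of 0.00122. That fit sets 1 high fat array against 2 control arrays, and the lone array is assumed to vary like the other groups. At ZT4 the high fat arrays of Id3 read 10.25, 10.33, 9.73 and 10.29, against 9.87, 9.97 and 10.21 in control. They spanned 9.33 to 9.57 in high fat and 9.22 to 9.52 in control at ZT12, and at ZT20 9.70 to 10.20 in high fat and 9.86 to 10.11 in control. The diets overlapped at ZT4, ZT12, ZT16 and ZT20, and the differences of Id3 there lay between -0.02 and 0.13. The test that the diet difference of Id3 is the same over the day gave an adjusted p of 0.0405, and Id3 was the 1 member of 7 that passed, where 19.0% of all genes did. Averaged over the day, Id3 was higher in high fat by 0.27 ± 0.07 (SE), or 1.21-fold, adjusted p 0.0197. With Tgfb1 that made 2 of 7 members called for the average, where 7.59% of all genes were called and 5.52% called higher.

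These Id3 calls rested on several arrays. The average kept its call without ZT8, but was 0.32 with an adjusted p of 0.0609 without ZT12, and 0.18 with 0.0768 without high fat ZT8 replicate 1. Without ZT12 the diet by time test of Id3 gave 0.0796. That test also missed the threshold, with adjusted p from 0.0504 to 0.1, without any of 14 arrays. These were control ZT0 replicates 1, 3 and 4, high fat ZT0 replicates 2 and 3, control ZT8 replicate 1, control ZT12 replicates 2 and 3, high fat ZT12 replicate 3, control ZT16 replicates 1 and 2, high fat ZT16 replicates 1 and 3, and control ZT20 replicate 4.

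Id1 did not pass any diet test. At ZT20 its high fat arrays read 8.15, 8.24, 8.34 and 8.11, against 7.81, 7.77, 7.70 and 7.94 on the control arrays, without overlap. Of all genes, 3.97% had high fat arrays all above at ZT20. The Id1 difference of 0.40 ± 0.17 (SE) had an adjusted p of 0.263. Its average over the day was 0.17 higher in high fat (95% interval 0.01 to 0.34, adjusted p 0.172). Id2 came nearest to the threshold at ZT8, where the high fat arrays read 7.78 and 7.84, and the control arrays 7.56 and 7.09. These arrays did not overlap, as was the case, with high fat above, for 28.0% of genes at ZT8. The difference of 0.48 ± 0.16 had an adjusted p of 0.0536. No member was called at ZT8, where 8.34% of all genes were.

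The ZT8 difference of Id2 passed without any of 5 arrays (adjusted p 0.0130 to 0.0495), and was widest, at 0.71, without control ZT8 replicate 1. That fit leaves 1 control array at ZT8, which is assumed to vary like the other groups. The other 4 were control ZT12 replicate 1, control ZT16 replicate 3, high fat ZT12 replicate 3 and high fat ZT20 replicate 1. Leaving out control ZT8 replicate 1 also took the Id2 average to an adjusted p of 0.0368 and its diet by time test to 0.0405, and leaving out control ZT16 replicate 3 took that test to 0.0389. The other probe sets of Id2 did not show the ZT8 difference: they gave 0.02 ± 0.14 and 0.00 ± 0.10 (SE). At ZT0 they gave 0.29 and 0.22, against 0.14 for the probe set with the highest mean, and the mean of the 3 passed the test there at 0.22 with an adjusted p of 0.0362, and the diet by time test at 0.00578. The probe sets of Id2 thus disagreed on where the diets differed most.

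**Figure D3:**
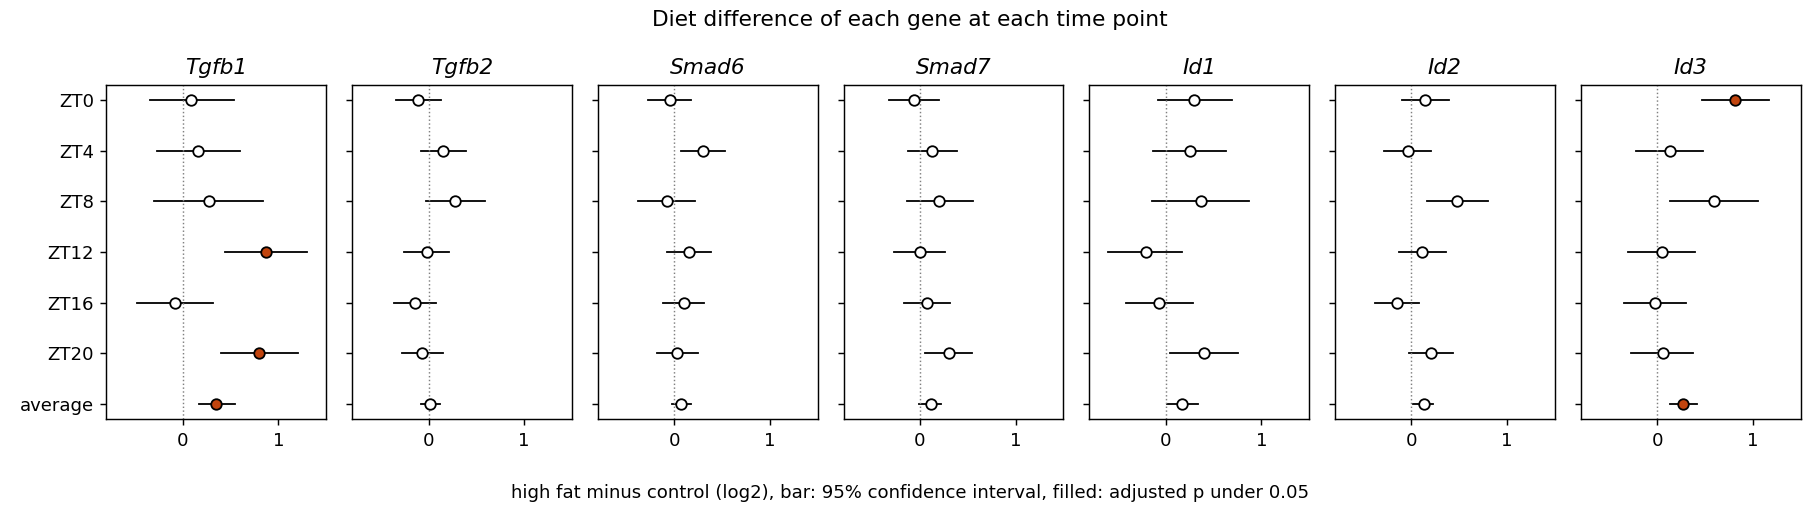
Difference in log2 expression, high fat minus control, for the 7 genes at each zeitgeber time and on average over the day; bars are 95% confidence intervals and filled points have an adjusted p under 0.05. Filled points appear for Tgfb1 at ZT12 (0.87), ZT20 (0.80) and on average (0.35), and for Id3 at ZT0 (0.82) and on average (0.27).

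No member was called at ZT4 or ZT16, where 0.386% and 1.24% of all genes were called. At ZT4, 6 of 7 members had a positive difference, with a median of 0.15 beside 0.002 over all genes, and at ZT16 it was 2 of 7, with a median of -0.07 beside -0.003. For the average over the day all 7 differences were positive, with a median of 0.13 beside 0.016 over all genes. Of the 7, 2 passed the test. Because the members were chosen with earlier results known, these counts and medians are no test of the set.

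The members also varied over the day within each diet. In high fat, 4 of 7 changed over the 6 time points, where 41.5% of all genes did: Tgfb1 (adjusted p 0.000307), Id3 (0.00359), Smad7 (0.00829) and Id1 (0.0334). In control, 5 of 7 changed, where 43.9% of all genes did: Id3 (2.04e-06), Tgfb1 (0.000478), Tgfb2 (0.00271), Id2 (0.0112) and Smad7 (0.0377). With backgrounds this high, the counts are no result about the members as a set. Smad6 passed in neither diet (0.506 in high fat and 0.564 in control). Whether the time courses differ between the diets is what the diet by time test asks, and Id3 alone passed it.

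Tgfb1 in high fat was highest at ZT20 (7.70), followed by ZT12 (7.54), ZT4 (7.50), ZT16 (7.29), ZT0 (6.95) and ZT8 (6.30 ± 0.60, SD, n = 2). In control it was highest at ZT16 (7.37), followed by ZT4 (7.34), ZT20 (6.90), ZT0 (6.85), ZT12 (6.67) and ZT8 (6.03 ± 0.21, SD, n = 2). ZT8 was lowest in both diets, at the time when the group means of basal markers were lowest and those of suprabasal markers highest. In high fat ZT8, replicate 2 had a basal mean of 11.19 and a suprabasal mean of 10.11, and replicate 1 had 11.77 and 9.35. The part of these markers in the low Tgfb1 level was not tested. Of neighbours in these orders, only ZT12 and ZT8 in control lay further apart than the sum of their SDs.

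Id3 was highest at ZT4 and next highest at ZT20 in both diets, at 10.15 ± 0.28 and 10.01 ± 0.22 in high fat (SD, n = 4 each), against 10.02 ± 0.17 (n = 3) and 9.96 ± 0.11 (n = 4) in control. In high fat it then ran through ZT0 (9.72), ZT16 (9.70), ZT8 (9.47) and ZT12 (9.44). In control the order was ZT16 (9.73), ZT12 (9.39), ZT0 (8.90) and ZT8 (8.87). The span of group means was 0.71 in high fat and 1.15 in control. Control ZT16 over ZT12, and ZT12 over ZT0, were further apart than the sum of their SDs, and no neighbours were in high fat.

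Smad7 was highest at ZT4 in both diets, at 5.46 ± 0.28 in high fat (SD, n = 4) and 5.33 ± 0.35 in control (SD, n = 3), and next highest at ZT16. It was lowest at ZT0 in high fat (4.95) and at ZT8 in control (4.85), and no neighbours in either order were further apart than their SDs. Id1 was highest at ZT4 in high fat (8.50) and at ZT16 in control (8.31), and lowest at ZT12 in high fat (7.80 ± 0.49) and at ZT0 in control (7.78 ± 0.09). Tgfb2 was highest at ZT0 in both diets, at 5.09 in high fat and 5.20 in control, and spanned 0.26 in high fat and 0.62 in control. Its control ZT20 mean (4.96) exceeded that of ZT4 (4.75) by more than the sum of their SDs. Id2 spanned 0.22 in high fat and 0.47 in control, and Smad6 0.21 in high fat and 0.24 in control, with no neighbours apart by more than their SDs. The courses of Smad7, Tgfb2 and Smad6 are read at the low mean levels given above.

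Several of these time courses rested on ZT8 or ZT12, the times of the arrays that stood apart. Without ZT12 the high fat courses of Id3 (adjusted p 0.0513) and Id1 (0.259) were not called, which left 2 of 7. Without both ZT8 and ZT12 the high fat courses of Smad7 (0.0565) and Id1 (0.179) were not called. In control, Smad7 was not called without ZT8 (0.0690), nor without any of 8 control arrays (0.0531 to 0.176): ZT4 replicates 2 and 3, ZT8 replicates 1 and 2, ZT16 replicate 1, and ZT20 replicates 1, 2 and 3. Id1 in control, at 0.0550, was called without ZT8 (0.0489), without ZT12 (0.0121) and without any of 6 single arrays (0.0223 to 0.0469): replicate 1 of control ZT4 and of control ZT8, control ZT16 replicate 3, high fat ZT4 replicate 2, and high fat ZT12 replicates 3 and 4. In high fat, Id1 was lost without ZT4 replicate 1 (0.0613) or 2 (0.0867) or ZT12 replicate 1 (0.106) or 3 (0.140). The control course of Id2 was called by its main probe set only, with 0.0508 and 0.127 for the other two.

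None of the 7 genes followed a 24 h cosine, and the limma test of a cosine called 0 of 7 in high fat, 0 of 7 in control and 0 of 7 for the difference between the diets. Of all genes, 11.2% were called in high fat, 6.66% in control and 3.58% for the difference. At an unadjusted p under 0.05 the members' counts were also 0, where 4717 of all 17097 genes were below it in high fat, 3635 in control and 2991 for the difference. The nearest was Tgfb2 in control, with an amplitude of 0.16 ± 0.06 (SE), a peak at ZT 20 h, an unadjusted p of 0.0509 and an adjusted p of 0.237. Without ZT12 its amplitude was 0.27 and it was called (0.0166). For Id3 the amplitude was 0.27 ± 0.12 in high fat (adjusted p 0.272) and 0.22 ± 0.13 in control (0.532). The Id2 probe set with the lowest mean was an exception among the probe sets, with an adjusted p of 0.0452 for the difference between the diets.

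Over the 12 group means, the members most alike were Smad7 and Id1 (Pearson r = 0.80), Tgfb1 and Id3 (0.68), and Smad7 and Id3 (0.67). These points share libraries and time of day and are described without a test. Among all genes, the closest to Tgfb1 over the 12 group means were Esyt1 (0.959), Klk10 (0.955) and Lalba (0.947), and to Tgfb2 Crkl (0.964), Psen2 (0.939) and Xpnpep3 (0.931). Closest to Id3 were Ppp1r15a (0.963), Gadd45a (0.95) and Bhlhe40 (0.945), to Id1 Wdfy3 (0.882), Magi1 (0.868) and Car15 (0.861), and to Id2 Tecta (0.886), Armc6 (0.875) and Zfp296 (0.871). Smad7 was closest to Nup155 (0.899), Vegfa (0.875) and Slc2a1 (0.872), and Smad6 to Gbx2 (0.898), Pdgfra (0.895) and Scrt1 (0.882).

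Of a wider list of TGF-beta and BMP genes, 67 were measured: other ligands, antagonists, receptors, Smads with their modifiers, and targets. At ZT0 the ligand gene Bmp2 was the 1 of 67 called, where 0.854% of all genes were. Its high fat arrays ran from 8.60 to 8.91 and its control arrays from 7.79 to 8.17. Its difference was 0.87 ± 0.21 (SE), or 1.82-fold, adjusted p 0.0439 by limma. Bmp2 was also the 1 of 67 called for the average over the day, at 0.35 (adjusted p 0.0168), where 7.59% of all genes were called. Without ZT12 none of the 67 was called for the average. Bmp2 was highest at ZT20 and ZT4 in both diets, at 9.96 and 9.91 in high fat, against 9.80 and 9.66 in control. Its lowest mean was at ZT8 in high fat (8.24 ± 0.78, SD, n = 2) and at ZT0 in control (7.92 ± 0.17, SD, n = 4). Leaving out 1 array moved the count at ZT0 in 21 of 41 cases, to between 0 and 3, and the count for the average ran from 0 to 8.

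At ZT8, 8 of 67 were called, 5 higher in high fat, where 5.42% of all genes were, and 3 lower, where 2.92% were. At ZT12 it was 5, of which 2 were higher and 3 lower, where 18.0% of all genes were called, 13.6% higher and 4.44% lower. In a fit of the ZT8 arrays alone 0 of the 67 were called at ZT8. Some cell markers were also called at ZT8, to be read beside the same shares of all genes. Called lower were 2 of 6 bulge markers and 2 of 8 suprabasal markers. Called higher were 1 of 8 basal markers and 2 of 7 leukocyte markers. The bulge mean was 7.62 in high fat and 8.09 in control. The part of these markers in the ZT8 differences was not tested. The BMP receptor gene Bmpr2 was lower at ZT8, with a difference of -0.51 ± 0.08 (SE). Its arrays read 10.52 and 10.69 in high fat, against 11.05 and 11.17 in control. The other probe set of Bmpr2 gave -0.39 and was not called by limma (adjusted p 0.0551). Tgfbr2, a TGF-beta receptor gene, differed by 1.02 in its main probe set but by 0.24 and 0.00 in its others. Fstl3, which encodes an inhibitor of activin, differed by 0.49 at ZT8. Sostdc1, which encodes a BMP antagonist, was higher in high fat at ZT8 (0.66 in its main probe set, 0.33 with an adjusted p of 0.238 in its other) and at ZT12, where arrays ran from 10.38 to 10.76 in high fat and from 9.59 to 9.89 in control. Its ZT12 difference was 0.84 ± 0.12, adjusted p 3.91e-05, and the other probe set gave 0.81 there. Also called at ZT12 were the cell cycle inhibitor gene Cdkn2b (0.55), the Smad corepressor gene Ski (-0.25) and, by the smallest margins, Tgfb3 (-0.65) and the target Klf10 (-0.34). With the mean of each gene's probe sets, 16 were called at ZT12. The ZT8 count was 2 without control ZT8 replicate 2 or high fat ZT8 replicate 1, and the ZT12 count 3 without control ZT12 replicate 1 or 3.

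At ZT16 the target Id4, the remaining gene of the Id family, was the 1 of 67 called, with a difference of -0.37 ± 0.09 (adjusted p 0.0333), where 0.661% of all genes were called lower. Its high fat arrays ran from 9.03 to 9.20 and its control arrays from 9.43 to 9.52. The other probe sets of Id4 gave -0.34 and -0.19 and were not called by limma (adjusted p 0.373 and 0.553). Leaving out 1 array moved the ZT16 count in 9 of 41 cases, to between 0 and 2. At ZT4 and ZT20 limma called none of the 67, where 0.386% and 0.702% of all genes were called. The diet by time test called 16 of 67, led by Sostdc1 (1.83e-05), Bmpr2 (0.000222), Fstl3 (0.00132) and Id4 (0.00764), where 19.0% of all genes were called. It called 13 without ZT8, 8 without ZT12 and 1 without both. Over the day 42 of 67 changed in high fat, beside 41.5% of all genes, and 47 of 67 in control, beside 43.9%, with Bmp2 among the first in both (5.77e-07 in high fat and 2.95e-08 in control).

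A 24 h cosine was called for 15 of the 67 in high fat, led by Bmp7 (adjusted p 0.000150), Smad1 (0.000362), Fst (0.000969) and Sostdc1 (0.00111), and for 8 in control, led by Tsc22d1 (0.000791), Tgfbr2 (0.0191), Bmp1 (0.0212) and Bmpr2 (0.0272). Of all genes, 11.2% were called in high fat and 6.66% in control. The cosine differed between the diets for 3 of the 67, beside 3.58% of all genes: Sostdc1 (0.00603), Bmpr2 (0.0330) and Ski (0.0415). With the arrays of a diet and time point as a random block, 1 was called in high fat, 1 in control and 0 for the difference, and without ZT8 the control count was 1. Without ZT12, 7 were called in high fat and 0 for the difference. Sostdc1 in high fat peaked at ZT 7.46 h in this fit, with an amplitude of 0.46 ± 0.08 (SE).

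**Figure D4:**
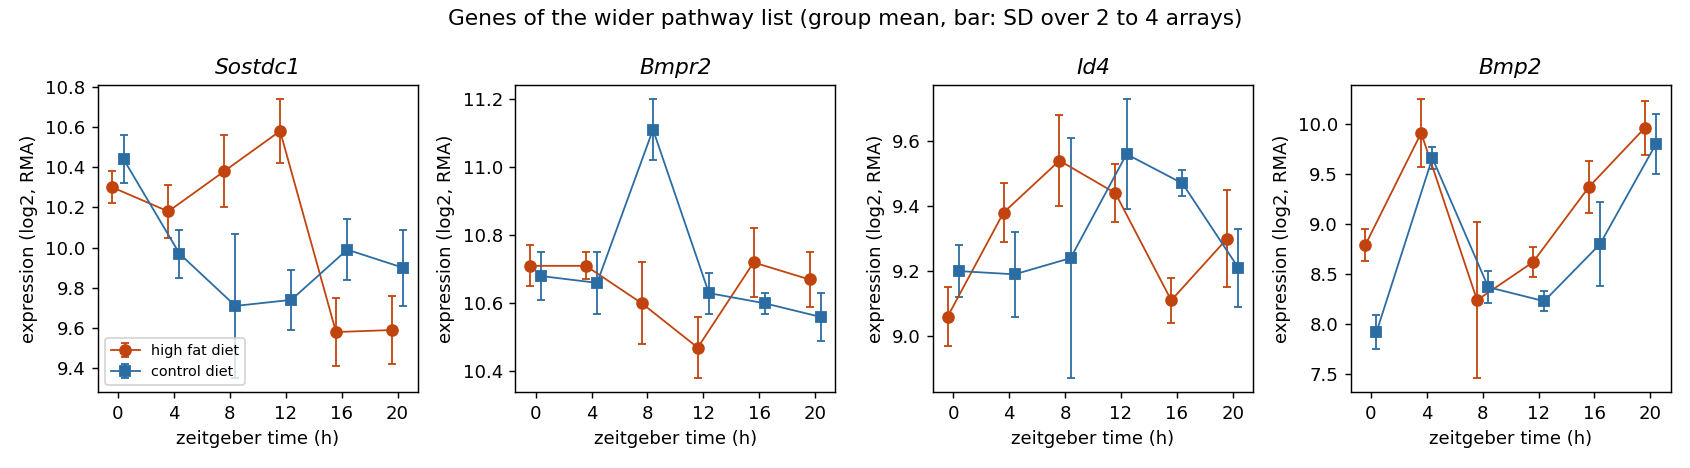
Group means of log2 expression (RMA) against zeitgeber time in hours for Sostdc1, Bmpr2, Id4 and Bmp2, with high fat in orange and control in blue and bars of 1 SD over 2 to 4 arrays. Sostdc1 is higher in high fat at ZT12 (by 0.84), Bmpr2 is highest in the control ZT8 group (a difference of -0.51), Id4 is lower in high fat at ZT16 (-0.37), and Bmp2 is higher in high fat at ZT0 (by 0.87).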

How the data were processed

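RNA of epidermal stem cells was measured on 41 Affymetrix arrays in 12 groups of 2 to 4 (2 diets, 6 time points), after whole transcriptome amplification (WTA2) per the labels' protocols. The deposited values are log2 expression, for which the authors used RMA according to the submitters' processing notes. The sources used here give neither its version nor any batch step. Of 45141 probe sets, 28898 name 1 gene, 551 name several and were left out, and 15692 are unnamed here. Each of 17097 genes was represented by the probe set with the highest mean, and no filter on low values was applied. Groups were fitted with limma 3.58.1 (lmFit, eBayes) in R 4.3.3, with p-values adjusted by Benjamini-Hochberg over all genes at a threshold of 0.05. Tests covered high fat minus control at each time and on average, diet by time, the course within each diet, and a 24 h cosine. Scripts were tested on simulated data; Python 3.11.15 and matplotlib 3.10.9 drew the plots.

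The named genes are the 7 members, up to 4 genes of the wider list per comparison with the smallest adjusted p, and the 3 genes most alike to each member, passing over provisional symbols. Others were named after their values were seen (Tgfb3 and Klf10 at ZT12, marker genes that were called). The members and lists were chosen with earlier results of these data known. The wider list held 9 further genes that are not analysed here. Arrays with the same replicate number in the 2 diets showed no clear joint deviation. Of 19 such pairs, 2 had a correlation over 0.1 (range -0.272 to 0.248). With groups of 2 to 4 arrays this cannot exclude a pairing by number, and the main tests used none. Alternatives were the mean of probe sets, other Id2 probe sets, array medians subtracted, trended and robust eBayes, leaving out genes of the lowest mean levels, a replicate block, leaving out each array, ZT8 or ZT12, a random block for the cosine, and time points fitted alone; leaving out ZT8 and ZT12 together was added after seeing the data.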

Additional observations from a re-analysis of the deposited data

Results flagged for a closer look

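Among 49 member groups of 4 arrays tested for an array far from the others, 1 was picked out: Id3 in high fat ZT4 replicate 3, at 9.73, where the other three arrays read 10.25, 10.33 and 10.29. Chance picks out about 1 in 20 such groups. The Id3 difference between the diets varied over the day, with an adjusted p of 0.0405 for diet by time in limma's F test, from 0.82 at ZT0 to -0.02 at ZT16.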

How the results depend on the processing

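Over 4362 single tests of the members under alternatives, 4257 kept their side of the threshold, 65 lost it, 40 gained it and 0 changed sign while called. Of these tests, 3731 left out 1 array, and most concern results that were not called in the main fit. The total is therefore no measure of how firm the called results are. Each diet call of a member was lost under some setting. The number of the 7 members called was 1 at ZT0, 1 at ZT12 and 1 at ZT20, and 0 at each when that time point was fitted alone; with the mean of probe sets it was 2 at ZT0. With the replicate number as a block, 0 were called at ZT20 (Tgfb1, adjusted p 0.0576) and 2 for diet by time (Tgfb1 joined at 0.0479). The block also brought the control course of Id1 to 0.0471 and changed no other member's call. Leaving out the genes of the lowest mean levels, which drops Tgfb2, Smad6 and Smad7, gave 1 at ZT8 (Id2, 0.0469) and 2 for diet by time. Diet by time gave 2 with the mean of probe sets, 2 with trended and robust eBayes, 2 without ZT8, 0 without ZT12 and 0 without both, beside 1. The average over the day gave 0 without ZT12 and 0 without both, beside 2. The high fat course gave 2 without ZT12 and 2 without both, beside 4, and the control cosine gave 1 without ZT12 (Tgfb2), beside 0. Leaving out 1 array at a time gave 0 to 1 at ZT0, ZT8, ZT12 and ZT20, 0 to 3 for the average, 0 to 2 for diet by time, 4 to 6 for the control course and 3 to 4 for the high fat course, and 0 throughout at ZT4, ZT16 and for the 3 cosine tests. With array medians subtracted, Id1 in control was called (0.0479) and Smad7 was not (0.0507). The cause was not tested. Groups of 2 arrays at ZT8 limit every value there, and signal over background is unknown.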
